A study of Mus musculus with 4 samples.

Results

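The genes of polyamine synthesis and turnover were followed in 129/Ola mouse embryonic stem cells, wild type or with both alleles of Chd2 mutated. They are Odc1, Amd1, Srm and Sms, which make polyamines, Oaz1, Oaz2 and Azin1, which control Odc1 protein, and Sat1, Smox and Paox, which break polyamines down. They were chosen by symbol, as the 10 genes around Odc1, with the difference of Odc1 between the genotypes already known, so the values below are descriptions of the group and not tests of it. Of the 10 symbols, 9 had a row of their own among 23309 rows. Amd1 was listed only in a row that joins it with Amd2 and is given separately. All 9 rows reached a mean of 1 FPKM over the genotypes, the level required here for a gene to enter counts and medians.

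Each genotype had 2 RNA sequencing libraries of total RNA, named lot 1 and lot 2. The sample titles call the mutant Chd2KO and the header of the values calls it Chd2mut/mut. Chd2 encodes an ATP-dependent chromatin remodeler, and the comparison asks what its mutation does to RNA levels in undifferentiated cells. The growth medium of all cells held serum and leukemia inhibitory factor, which keeps them undifferentiated. It is not stated whether lots are independent cultures, how the mutant line was derived from the wild type, or whether it is a single clone.

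Polyamines are small positively charged molecules that bind RNA and DNA and are needed for growth. Ornithine decarboxylase, the product of Odc1, turns ornithine into putrescine, and S-adenosylmethionine decarboxylase, the product of Amd1, supplies the aminopropyl groups with which spermidine synthase (Srm) and spermine synthase (Sms) extend it. Antizymes, encoded by Oaz1 and Oaz2, bind ornithine decarboxylase and send it to the proteasome, and the antizyme inhibitor encoded by Azin1 takes antizyme away from it. Odc1 is a textbook target of the transcription factor MYC, and Amd1 is known to be needed for self-renewal of mouse embryonic stem cells.

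Levels are given in FPKM, fragments scaled for transcript length and library size, with 1 value per genotype that the authors made over its libraries. No standard deviation can be given, the depth is unknown, and significance is that of the q-value in the authors' deposited table, which calls a gene at a q under 0.05. Changes are differences of log2(FPKM + 1), mutant minus wild type, a scale that understates changes of genes near 1 FPKM. Folds are plain ratios of FPKM. Chd2 itself was at 10.2 FPKM in wild-type cells and 5.69 in mutant cells, with a q-value of 0.0103 in the authors' deposited table. All 8 embryonic stem cell markers examined, among them Nanog at 114 and 150 FPKM and Sox2 at 178 and 222 FPKM, were at 16.7 FPKM or above in both genotypes. All 8 lay above 0, that is, at a higher value in mutant cells, with a median change of 0.15, also under each of the 3 other scalings, and none was called. The part of this in the Odc1 difference was not tested. The summed level of 10 fibroblast markers was 17.0 FPKM in wild-type cells and 14.8 in mutant cells, most of it from Thy1 at 14.2 and 11.5 FPKM, with Col3a1, Lum and Postn listed at 0. The summed level of 9 endoderm and trophoblast markers was 4.66 FPKM in wild-type cells and 4.0 in mutant cells.

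Odc1 fell in the mutant and was the only called gene among the 9 with a row of their own. Its level was 598 FPKM in wild-type cells and 397 in mutant cells, a 1.5-fold decrease that leaves 66.5% of the message. In the authors' deposited table its log2 fold change is -0.59 and its q-value 0.0103, the smallest there, which 55 genes share. In bulk RNA, fewer cells that express a gene and less of its RNA per cell cannot be told apart. The other 8 members had q-values between 0.950 and 0.998 in the authors' deposited table, so no member lay near the threshold of 0.05 on either side. Among 11276 genes whose q-value is under 1, 0.718% were called, 0.461% lower and 0.257% higher in the mutant. These shares are the background of the count, and since Odc1 was chosen from this comparison nothing is read from it.

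Odc1 combined a high level with a small fold change among called genes. It had the highest mean level of all 81 called genes and the largest difference in FPKM among them, and dropped by 200.3 FPKM. Counted over all rows, it ranked 66 by the size of the difference in FPKM. By the size of the fold change it ranked 78 of the 81, and the median fold of called genes that fell was 1.93. By level, Odc1 ranked 196 in wild-type cells and 265 in mutant cells, counted over all rows. Of 1015 genes with a mean level of 100 FPKM or more, 5 were called, and Odc1, at 1.5-fold, had the smallest fold of these. The others were Ifitm1, an interferon-induced membrane protein gene, at 241 and 396 FPKM in wild type and mutant, Atp5c1, which encodes the gamma subunit of ATP synthase, at 327 and 162 FPKM, the ubiquitin ligase gene Mid1, at 92.8 and 161 FPKM, and Vim, which encodes vimentin, at 158 and 76.3 FPKM. A further 14 genes of this abundance had a log2 fold change in the authors' deposited table at least as large in size as that of Odc1 and were not called.

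**Figure D1:**
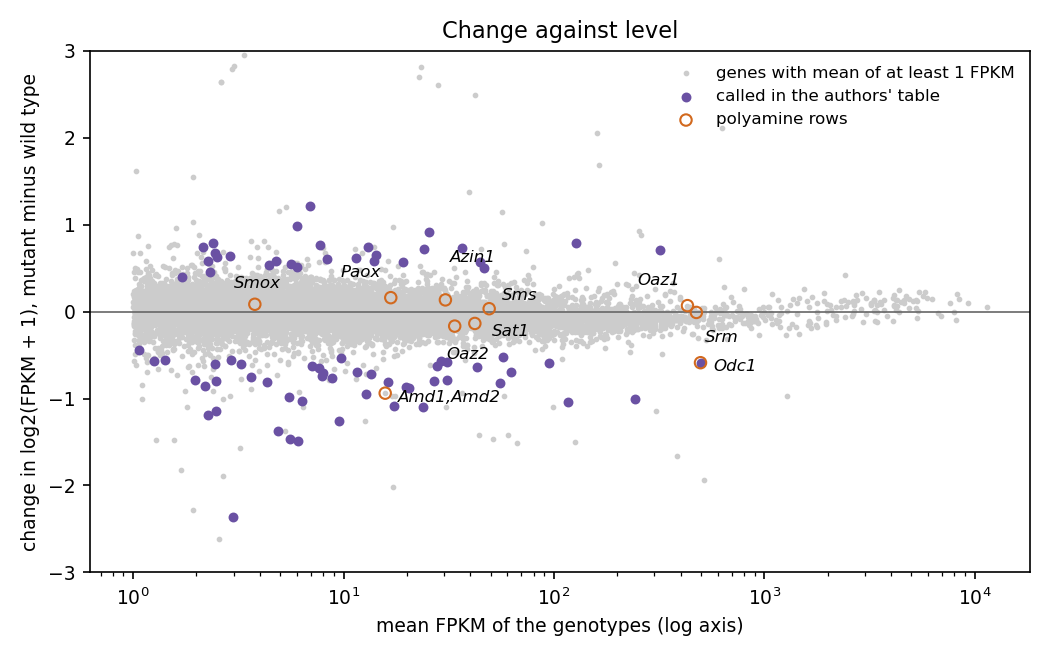
Each point is a gene with a mean level of 1 FPKM or more, with its mean level on a log axis and its change in log2(FPKM + 1), mutant minus wild type. Purple points were called in the authors' deposited table, orange circles mark the polyamine rows, and 42 genes lie outside the vertical range. Odc1 lies at -0.59 at the right of the called genes, while the other 8 members with a row of their own lie between -0.17 and 0.16.

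The Odc1 message shares sequence with processed pseudogenes, which bears on how its fragments could be assigned. Of all 50-base windows in its longest coding transcript in GENCODE M21, 42.2% also occur in transcripts of other annotated genes, 15 in number and all pseudogenes. Of these, Gm15645 has a row in the deposited table, at 148 FPKM in wild-type cells and 175 in mutant cells. It holds 4.08% of the Odc1 windows. The shared windows are 1.90% of those in its own longest transcript, so most of its windows do not occur in Odc1. With the rows of Odc1 and Gm15645 summed, the level was 746 FPKM in wild-type cells and 572 in mutant cells, a 1.30-fold lower sum. FPKM is scaled by length, so such a sum weighs transcripts and not fragments.

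The sequence before the start of Odc1 is shown because Odc1 is the called member. It comes from RefSeq promoter windows of GRCm38, another build than the authors used. The stretch is chr12:17544623-17544793 on the plus strand, the first 171 bases of a window that begins 250 bases before the start that RefSeq gives. It does not reach that start. Capitals mark GC boxes, the letters GGGCGG on either strand.
Odc1 upstream: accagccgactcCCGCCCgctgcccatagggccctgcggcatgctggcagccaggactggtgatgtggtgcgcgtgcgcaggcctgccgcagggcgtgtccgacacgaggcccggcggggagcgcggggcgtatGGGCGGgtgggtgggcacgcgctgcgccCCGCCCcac
The stretch holds 3 GC boxes, and the full window, from 250 bases before to 50 bases after the start that RefSeq gives, holds 4. The fourth begins at -15 from that start, past the printed bases. Of all 32851 such windows, 35.7% hold at least 1 GC box and 5.49% hold at least 4. The Odc1 window is 78% G or C, against a median of 52.7% over all windows. No E-box with the letters CACGTG, the site that MYC and its partner MAX bind, lies in the Odc1 window, and 7.15% of all windows hold it. That says only that these letters are not in this window. Windows were found for 8 of the 10 members. Among these, an E-box occurs in 1 of the windows of Sms, which was at 48.7 and 49.8 FPKM. GC boxes are also present in windows of Smox, Paox, Oaz2, Amd1, Sat1 and Sms, whose own rows, where they have one, were not called. The Smox window holds 6, and those of Oaz2 and 1 of Sms hold 4, so 4 is not particular to Odc1. Fewer lie in the windows of Paox, with 3 each, Sat1, with 2, Amd1, with 1, and Oaz1 and the other of Sms, with 0.

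Genes that lie beside Odc1 in the order of the RefSeq annotation of GRCm38 were not called. Of the 5 protein-coding genes with a row on either side, 7 had a mean level of 1 FPKM or more, and their changes ran from -0.21 to 0.11 on the log2(FPKM + 1) scale, with 4 below 0 and 3 above. The immediate neighbours were Nol10, a nucleolar protein gene, at 52.6 FPKM in wild-type cells and 49.6 in mutant cells, and Hpcal1, which encodes a neuronal calcium sensor protein, at 4.72 and 5.19 FPKM. The lowest change was that of Pdia6, which encodes a protein disulfide isomerase, at 128 and 111 FPKM.

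**Figure D2:**
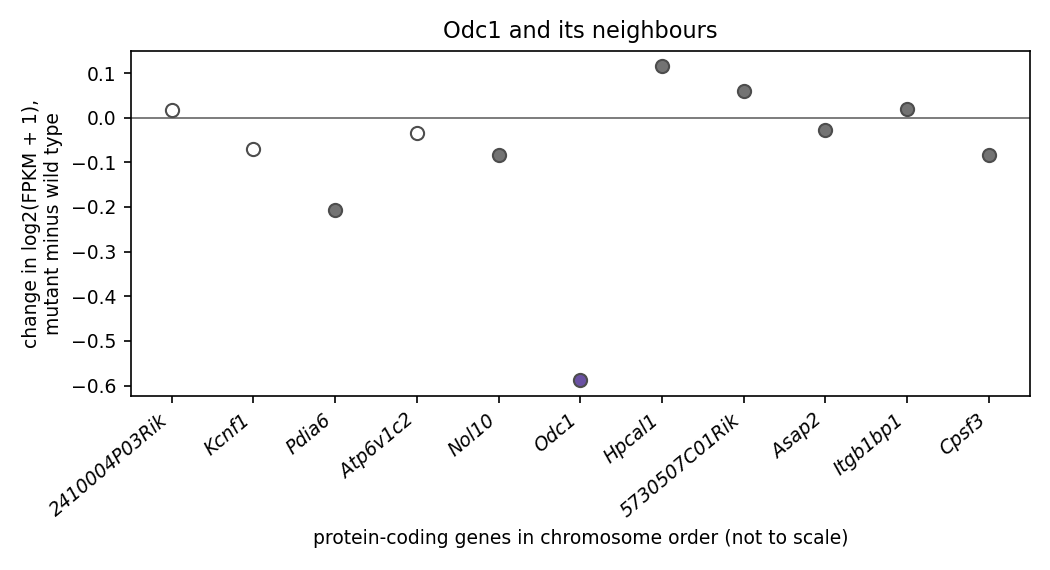
Change in log2(FPKM + 1), mutant minus wild type, of Odc1 and of the 5 protein-coding genes with a row on each side, in chromosome order and not to scale. The purple point was called in the authors' deposited table, grey points were not, and open points have a mean under 1 FPKM. Odc1 lies at -0.59 and its neighbours with a mean level of 1 FPKM or more lie between -0.21 and 0.11.

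The other genes of synthesis with a row of their own were not called. Srm, which encodes spermidine synthase and is also a known MYC target, was at 477 FPKM in wild-type cells and 474 in mutant cells. Sms, which encodes spermine synthase, was at 48.7 and 49.8 FPKM. Their changes were -0.01 and 0.03 on the log2(FPKM + 1) scale, and that of Srm turned to 0.07 under quantile normalization. Srm was the second most abundant of the members in wild type and, with Odc1 lower, the most abundant in the mutant. With 1 value per genotype, no spread is known that would say which neighbours in this order differ.

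Amd1 cannot be read as a single gene in these values. The row joining Amd1 and Amd2 was at 21.1 FPKM in wild-type cells and 10.5 in mutant cells, 2.0-fold lower, with a q-value of 0.998 in the authors' deposited table and no call. The row of Amd2, a near-identical copy, was at 95.3 and 99.6 FPKM. It was also not called, and it is not among the genes whose q-value is under 1. Of the 50-base windows in the longest Amd1 transcript, 86.1% also occur in Amd2. Summed over both rows, the level was 116 FPKM in wild-type cells and 110.2 in mutant cells, 1.06-fold lower. How fragments that match both copies were assigned is not given, so neither row is taken as the level of Amd1.

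**Figure D3:**
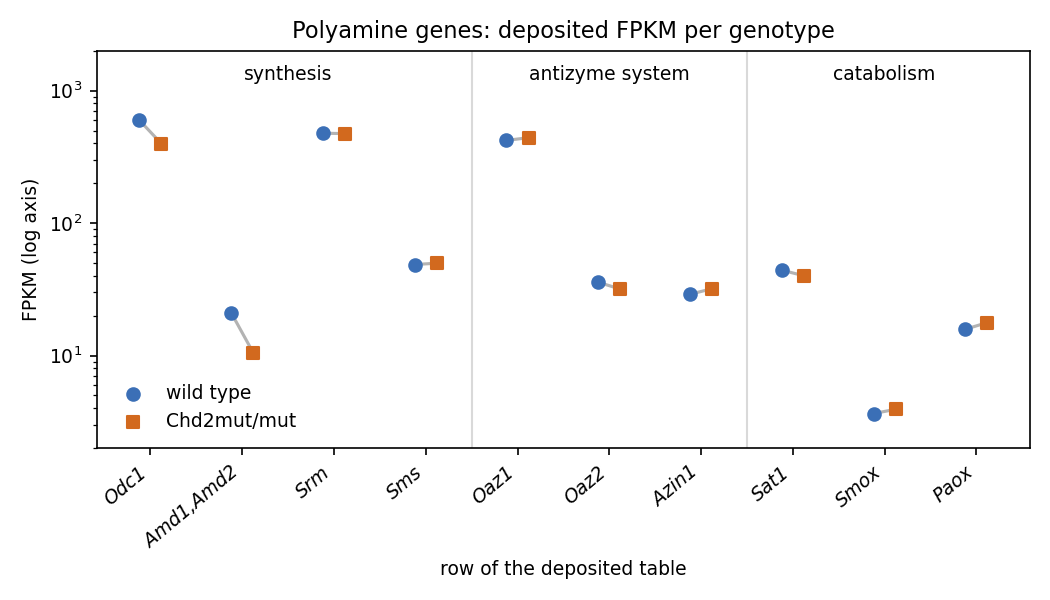
Deposited FPKM per genotype on a log axis, wild type as blue circles and mutant as orange squares, for the 9 members with a row of their own and the row joining Amd1 and Amd2, grouped by role. Odc1 goes from 598 to 397 FPKM and the joined row from 21.1 to 10.5 FPKM, and no other member differs by 1.2-fold.

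The genes that control Odc1 protein were not called. Oaz1, the main antizyme gene, was at 421 FPKM in wild-type cells and 441 in mutant cells. Oaz2, a second antizyme gene, was at 35.8 and 31.8 FPKM. Azin1, the antizyme inhibitor, which resembles Odc1 but has no decarboxylase activity, was at 29.0 and 32.0 FPKM. Their changes were 0.07, -0.17 and 0.13 on the log2(FPKM + 1) scale. Azin1 and the catabolic gene Smox share none of their 50-base windows with another annotated gene.

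Antizyme is controlled after transcription, by a ribosomal frameshift that polyamines favour, so the RNA level of Oaz1 does not give the amount of antizyme protein. The frameshift site is shown because it is the element that couples antizyme to polyamines and because the annotated pseudogene of Oaz1, which has a row, holds it too. Sequences are from GENCODE M21 transcripts (GRCm38), at chr10:80828268-80828321 on the plus strand for Oaz1, chr9:65686245-65686298 on the plus strand for Oaz2 and chr17:17345910-17345963 on the minus strand for Oaz1-ps, each exonic and 54 bases long. Capitals mark the last codon of the first frame and the stop codon at which the ribosome shifts.
Oaz1: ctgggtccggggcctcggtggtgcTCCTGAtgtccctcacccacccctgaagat
Oaz2: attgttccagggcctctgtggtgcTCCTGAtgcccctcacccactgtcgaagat
Oaz1-ps: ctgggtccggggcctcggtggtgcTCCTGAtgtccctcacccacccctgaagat
Over these bases the pseudogene is identical to Oaz1 at 54 of 54 positions and Oaz2 at 44. The spliced coding models of Oaz1 and Oaz2 leave out bases at this site, so the stretches were read from models that keep them. Of the 50-base windows in the longest Oaz1 transcript, 52.2% occur in Oaz1-ps. The Oaz1-ps row was at 320 FPKM in wild-type cells and 269 in mutant cells. It was not called and is not among the genes whose q-value is under 1. With the Oaz1 and Oaz1-ps rows summed, the level was 741 and 711 FPKM, a change of -0.06 where Oaz1 alone gave 0.07, so the sign for Oaz1 turns when the pseudogene row is added.

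The enzymes of polyamine breakdown were less abundant than Odc1, Srm and Sms and were not called. Sat1, which encodes the acetyltransferase that starts breakdown, was at 44.1 FPKM in wild-type cells and 40.1 in mutant cells. Paox, which encodes the oxidase of acetylated polyamines, was at 15.8 and 17.8 FPKM. Smox, which encodes spermine oxidase, was the least abundant member, at 3.65 and 3.93 FPKM. Sat1 lay below 0 and both oxidase genes above 0, with changes of -0.14, 0.16 and 0.08.

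Over the members other than Odc1 with a row of their own, 5 lay above 0 and 3 below, with Srm moving above 0 under quantile normalization and Oaz1 below 0 once its pseudogene row is added. None differed by 1.2-fold in either direction, where 18.2% of the 10766 genes with a mean level of 1 FPKM or more did. In a group of 8 a count of 0 is near that share, so nothing is read from it. The joined Amd1 and Amd2 row, 2.0-fold lower in the mutant and not called, is not among the 8. The largest fold of the 8, that of Oaz2, was 1.13. The median change over all 9 members was 0.03, against -0.0012 over all genes kept.

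The balance between Odc1 and its partners differed between the genotypes, as described by ratios of FPKM within a genotype. These ratios carry no error and follow from the values above. Odc1 message was 1.31 times the sum of Oaz1 and Oaz2 in wild type and 0.839 times that sum in the mutant. Including the Oaz1-ps row in the sum, the ratio was 0.769 in wild-type and 0.535 in mutant cells, so the antizyme sum then exceeded Odc1 in both. The ratio of Odc1 to Azin1 was 20.6 in wild-type and 12.4 in mutant cells, and that of Odc1 to Srm 1.25 and 0.838. Since Odc1 was chosen from this comparison, a difference in ratios that hold it was given in advance. Ratios without Odc1 are set beside them. The ratio of Srm to Sms was 9.80 and 9.51, that of Oaz1 to Azin1 14.5 and 13.8, and that of Oaz1 to Oaz2 11.8 and 13.9. The summed synthesis enzymes Odc1, Srm and Sms were 17.7 times the summed breakdown enzymes Sat1, Smox and Paox in wild type and 14.9 times in the mutant. That ratio was 1.18-fold lower in the mutant, while that of Oaz1 to Oaz2, which lacks Odc1, was 1.18-fold higher.

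**Figure D4:**
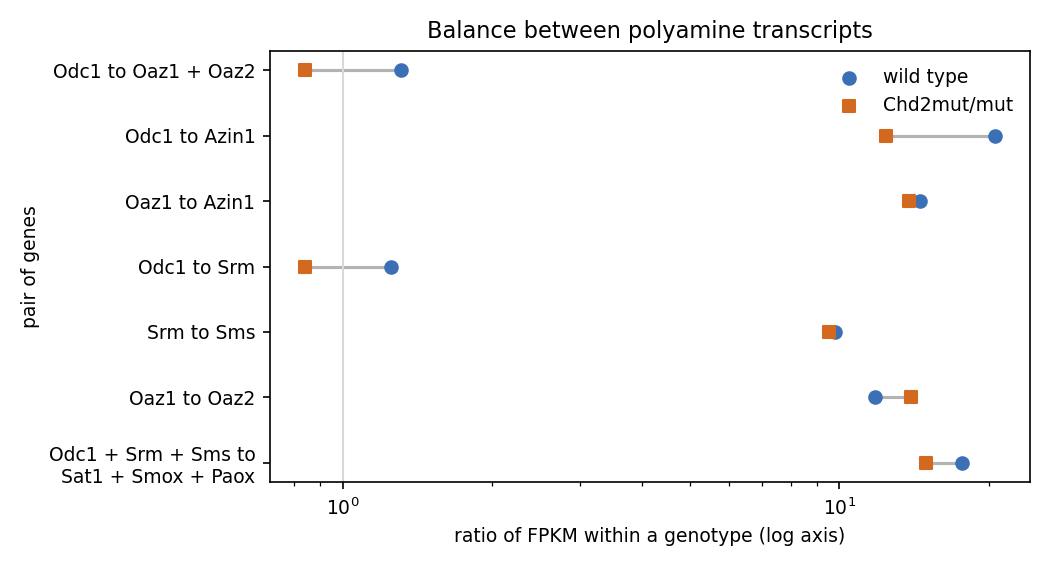
Ratios of FPKM between polyamine genes within each genotype on a log axis, wild type as blue circles and mutant as orange squares, with a vertical line at 1. The ratio of Odc1 to the antizyme genes goes from 1.31 to 0.839 and that to Srm from 1.25 to 0.838, while the ratio of Srm to Sms is 9.80 and 9.51.

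Genes of adjoining pathways held no call, beside a share called of 0.718% over all genes with a q under 1, so that a count of 0 in lists of this size is near the background and sets none of them apart. The counts below rest on the call of the authors' deposited table, which gives q-values and no unadjusted p, and no gene of these lists had a q of at most 0.1. Of 7 further polyamine enzymes and regulators, only Amd2 and Azin2, listed under its older symbol Adc, had a mean level of 1 FPKM or more. Azin2, a second antizyme inhibitor gene, was at 1.35 FPKM in wild-type cells and 2.05 in mutant cells, with a q-value of 0.682 in the authors' deposited table. Oaz3, the antizyme gene of testis, was listed at 0 in both genotypes. Of 10 genes with a role in polyamine transport, 4 had a mean level of 1 FPKM or more, with changes from -0.18 to 0.13. Slc3a2, the heavy chain of several amino acid transporters, was at 69.0 and 60.7 FPKM. The lysosomal polyamine exporter gene Atp13a2 was at 8.45 and 7.78 FPKM, Atp13a3 at 14.2 and 14.4 FPKM, and the vesicular polyamine transporter gene Slc18b1 at 3.85 and 4.30 FPKM.

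Spermidine is used to make hypusine, a modified lysine on the translation factor eIF5A, and no gene of this step was called. Eif5a was more abundant than any polyamine enzyme gene, at 2239 FPKM in wild-type cells and 2157 in mutant cells. Dhps and Dohh, which encode the enzymes of the modification, were at 50.9 and 46.4 FPKM and at 111 and 109 FPKM. The paralog Eif5a2 was at 1.34 and 1.63 FPKM. Of these 4 genes 3 lay below 0, and 2 under quantile normalization.

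Genes that supply ornithine and S-adenosylmethionine lay on either side of 0. Arg1 and Arg2, whose products make ornithine from arginine, were both under 0.2 FPKM in each genotype. Of 19 genes for arginine and ornithine supply, 12 had a mean level of 1 FPKM or more, with a median change of -0.07, 5 above 0 and 7 below. Among the larger differences were those of Ass1, the argininosuccinate synthase gene, at 193 and 159 FPKM, Nos1, a nitric oxide synthase gene, at 2.34 and 1.78 FPKM, and Oat, which encodes ornithine aminotransferase, at 14.2 and 11.9 FPKM. In the methionine cycle, 10 of 14 genes had a mean level of 1 FPKM or more, with 5 above 0 and 5 below and a median of -0.01. Cbs, which encodes cystathionine beta-synthase, was at 9.62 and 12.2 FPKM. Ahcy, the S-adenosylhomocysteine hydrolase gene, was at 267 and 232 FPKM, Mtr, which encodes methionine synthase, at 10.3 and 9.06 FPKM, and Ahcyl1 at 25.0 and 22.7 FPKM.

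Methylthioadenosine is released each time spermidine or spermine is made, and its salvage returns methionine. Of the 5 salvage genes, none was called, 4 lay below 0, and the median change was -0.31. Mtap, which encodes the phosphorylase that begins salvage, was at 44.4 FPKM in wild-type cells and 32.8 in mutant cells, 1.35-fold lower, with a q-value of 0.181 in the authors' deposited table. Apip was at 25.0 and 19.1 FPKM and Mri1 at 13.7 and 10.8 FPKM, 1.31-fold and 1.27-fold lower, with q-values of 0.563 and 0.642 there. These 3 of 5 genes differed by at least 1.2-fold, all lower in the mutant, where 8.43% of the genes kept were lower by that much. The count is a description, and no test was made of the list. Adi1 was at 75.0 and 77.9 FPKM and Enoph1, chosen after its values were seen, at 44.7 and 43.1 FPKM.

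MYC and its targets were examined because Odc1 is among those targets. Myc was at 57.9 FPKM in wild-type cells and 51.5 in mutant cells, and Mycn, its relative that is abundant in embryonic stem cells, at 41.9 and 50.2 FPKM. Neither was called. Mnt, a repressor that competes with MYC for MAX, was at 8.33 and 10.1 FPKM, and Mxi1, another such repressor, at 4.96 and 4.29 FPKM. Of 11 genes of the MYC network kept, 7 lay above 0 and 4 below. The 33 MYC targets outside the polyamine genes were all kept, with 22 below 0, 11 above and a median change of -0.08. Over all 10766 genes kept, 5423 lay below 0 and 5343 above. Under quantile normalization 19 lay below 0 and the median was -0.01. Of the 33, 1 differed by 1.2-fold, beside 18.2% of all genes kept. It was Shmt2, a mitochondrial serine hydroxymethyltransferase gene, at 99.3 and 80.4 FPKM. These counts are descriptions, and no test was made of the list. The next largest differences were those of Bop1, for ribosome assembly, at 109 and 91.2 FPKM, Nolc1, a nucleolar protein gene, at 160 and 139 FPKM, and the rRNA methyltransferase gene Fbl, at 597 and 534 FPKM. Fbl had nearly the wild-type level of Odc1 and a 1.12-fold difference.

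**Figure D5:**
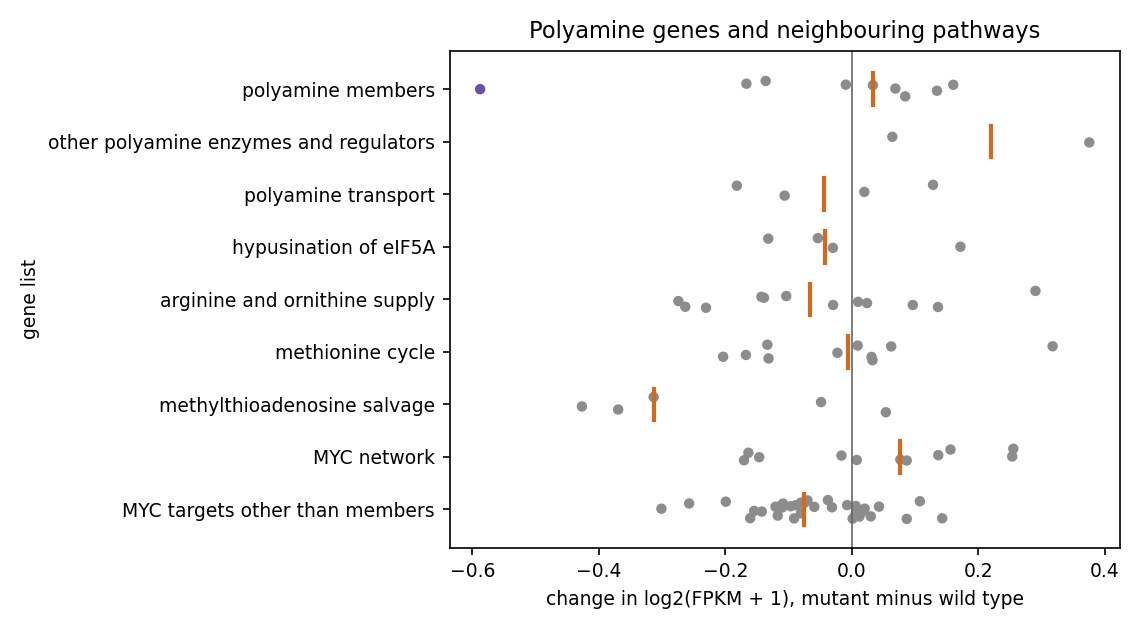
Change in log2(FPKM + 1), mutant minus wild type, for each gene with a mean level of 1 FPKM or more in the polyamine group and the adjoining lists. Orange bars are medians, and the purple point, Odc1, is the called gene. Odc1 lies at -0.59, the methylthioadenosine salvage list has a median of -0.31, and the 33 MYC targets lie between -0.30 and 0.14.

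The genes nearest to Odc1 in its 2 values were found by the distance to it in log2(FPKM + 1) of wild type and of mutant. The distance takes 2 values per gene. Symbols that begin with Mir, Snor or Gm and a digit, or end in Rik, were left out. The nearest were Hypk at a distance of 0.20, with 532 FPKM in wild-type cells and 431 in mutant cells, and Polr2f, an RNA polymerase subunit gene, at 0.24, with 587 and 469 FPKM. They were followed by Ndufs6, of respiratory complex I, at 0.27, Atp5g1, of ATP synthase, at 0.28, and Chchd2 at 0.30. The folds of these 5 genes, between 1.12 and 1.25, were all smaller than that of Odc1, and none was called. Odc1 was chosen from these same values, and 5 of 1015 genes with a mean of 100 FPKM or more were called. Smaller folds without a call were thus nearly given in advance, and nothing is read from them.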

How the data were processed

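RNA was sequenced from 2 wild-type and 2 Chd2 mutant libraries. Per the submitters' processing notes, the software comprised bcl2fastq 2.17.1.14, TopHat2 2.1.0 and Cufflinks, and the mouse build was mm9. The Cufflinks version, the gene annotation, the handling of fragments that match several places and the test behind the q-values are unknown here (not given in the sources). The authors deposited 1 FPKM value per gene and genotype. A log2 fold change, a q-value and a call for each gene are further columns, per the file headers. The calls are the genes whose deposited q-value is under 0.05. A design for values per library could not be used, since the table analysed has 1 column per genotype.

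Differences of log2(FPKM + 1), medians and ratios were computed in Python 3.11.15 with pandas 2.3.3, for genes with a mean level of 1 FPKM or more where medians and counts are given. No test was added. The scripts were checked on the deposited wild-type values with changes planted in them, and on random sequences. The members, the lists and the rule for named genes were chosen with earlier results of these data known. The rule takes the members, Chd2, up to 4 genes per list by call and then by size of change, Myc and Mycn, and the 5 genes nearest to Odc1. The abundant called genes, the neighbours of Odc1, and the rows that share sequence with members were added after values were seen. Azin2, Aoc1 and Mycl were matched through older symbols. For the arginine and ornithine list, 1 gene that the rule takes is not reported here. Sequence windows came from GENCODE M21 and RefSeq tables of GRCm38. No coordinates were carried between builds.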

Additional observations from a re-analysis of the deposited data

How the results depend on the processing

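No paired analysis was possible because the table holds 1 value per genotype and none per lot, and for the same reason no library could be left out. Under the planned settings (pseudocount 0.1, no pseudocount, quantile normalization, the median of all genes set to 0, equal column sums) the change of Odc1 stayed between -0.59 and -0.53. With the rows of Odc1 and Gm15645, which share few windows, summed it was -0.38. With Oaz1-ps added to the antizymes, the log2 difference of the ratio of Odc1 to them went from -0.64 to -0.52. These sums, the Amd1 settings and the q of at most 0.1 for the lists were chosen after seeing the data. The count of called members was 1 at a q of at most 0.02, at a q of at most 0.1, with a mean level of 5 FPKM or more and with the joined Amd1 and Amd2 row counted. None of these settings could change it. The q-value of Odc1 was 0.0103 in the authors' deposited table, and those of the other 8 members ran from 0.950 to 0.998. That of the joined row was 0.998. The median change of the members lay between 0.01 and 0.07. Of 62 recomputed changes, 2 turned sign, that of Srm to 0.07 under quantile normalization and that of Oaz1 to -0.06 with its pseudogene summed. A pseudocount cannot turn a sign. The unknown depth and spread between lots limit all values.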

Other observations

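The table holds 104 rows that join several symbols, of which the Amd1 and Amd2 row is an example, 11 of them with a mean level of 1 FPKM or more. Of these 11, 4 differed by at least 1.2-fold, or 36.4%, against 18.2% of all genes kept, with no test of the difference.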
